A study of Mus musculus with 8 samples.

Results

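Wide H3K56ac domains were defined as merged peaks from 5000 bp to just under 10 kb on the 19 autosomes of freshly isolated muscle stem cells (MuSCs), and 5301 of the 105600 merged peaks (5.02%) met this width. They were chosen by width alone, so their width is a description of the choice and was not tested. The mark H3K56ac is histone H3 acetylated at lysine 56, and it was mapped by ChIP-seq, in which an antibody pulls down chromatin whose DNA is then sequenced. The 8 libraries comprised 2 H3K56ac and 2 input replicates from Control mice and as many from Sirt6mKO mice. All mice were C57BL/6. Control mice were labelled as wild type, and in Sirt6mKO mice a constitutive Pax7-ICNCre deleted floxed Sirt6, which encodes an NAD+-dependent deacetylase, so that the whole skeletal muscle lineage and not MuSCs alone lost the gene. MuSCs were isolated from limb and trunk muscles by sorting, which in part relied on the surface proteins Integrin-alpha7 and CD34. Input libraries were made from chromatin without the antibody.

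The deposited list joined the peaks of the libraries into 1 set and gave 0 columns of values per sample, so a domain could stem from Control MuSCs, Sirt6mKO MuSCs or both, and the genotypes were not compared. The paper describes H3K56ac peaks after loss of Sirt6 as much broader than the sharp peaks of other histone marks. It also reports a genome-wide rise in the number of H3K56ac peaks in Sirt6mKO MuSCs. How many of the wide domains stem from Sirt6mKO MuSCs cannot be read from the list. Joining overlapping peaks can also widen a domain beyond its width in any 1 library. No depth and no peak height could be read from the list, and every value below describes the position, the sequence or the genes of a domain. Intervals in parentheses are 95% confidence intervals, which cover counting error only, since domains are not biological replicates.

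Acetylated histones mark accessible promoters and enhancers, the DNA elements from which transcription starts or is controlled at a distance. Lysine 56 lies on the lateral surface of the histone core, close to the point where DNA enters the nucleosome, and is acetylated by p300 and CBP and deacetylated by sirtuins including SIRT6. Adult MuSCs are mostly quiescent, are marked by the transcription factor PAX7, and rely on Notch signalling to remain so.

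Domains fell into 3 kinds by their distance to a transcription start site (TSS) in the GENCODE annotation of the mouse genome (mm10). A coding promoter domain came within 3 kb of the TSS of a protein-coding transcript, another promoter domain came within 3 kb only of other TSSs, and a non-promoter domain lay farther away. The 300 bases below, all from assembly GRCm38.p6, show the sequence at gene starts inside wide domains and at the centres of other domains, and CG dinucleotides (CpGs), the sites of DNA methylation, are in capitals. The first 4 are RefSeq promoters, from 250 bases before to 50 after the gene start, of genes whose start lay inside a wide domain: Junb (chr8:84978699-84978998, minus strand), an immediate early transcription factor gene, Cxcr4 (chr1:128592250-128592549, minus strand), a chemokine receptor gene, Sox8 (chr17:25570637-25570936, minus strand), a transcription factor gene, and Des (chr1:75360042-75360341, plus strand), the gene of the intermediate filament protein desmin.
Junb promoter: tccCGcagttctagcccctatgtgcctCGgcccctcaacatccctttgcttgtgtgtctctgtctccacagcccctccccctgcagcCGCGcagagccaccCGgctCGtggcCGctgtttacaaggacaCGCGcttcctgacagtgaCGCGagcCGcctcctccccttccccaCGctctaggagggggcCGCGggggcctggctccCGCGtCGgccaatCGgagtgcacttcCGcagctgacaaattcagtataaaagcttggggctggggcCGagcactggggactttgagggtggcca
Cxcr4 promoter: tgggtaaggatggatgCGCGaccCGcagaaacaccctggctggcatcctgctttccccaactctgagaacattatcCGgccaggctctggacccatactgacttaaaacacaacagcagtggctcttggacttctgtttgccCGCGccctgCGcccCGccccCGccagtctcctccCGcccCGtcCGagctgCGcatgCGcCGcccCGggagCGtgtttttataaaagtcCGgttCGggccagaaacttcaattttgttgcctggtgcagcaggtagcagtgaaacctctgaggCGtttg
Sox8 promoter: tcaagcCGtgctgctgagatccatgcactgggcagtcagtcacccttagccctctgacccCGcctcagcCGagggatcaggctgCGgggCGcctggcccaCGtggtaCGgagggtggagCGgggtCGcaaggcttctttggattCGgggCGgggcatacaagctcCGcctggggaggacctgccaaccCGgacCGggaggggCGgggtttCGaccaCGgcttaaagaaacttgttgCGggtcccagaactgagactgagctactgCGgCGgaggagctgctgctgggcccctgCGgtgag
Des promoter: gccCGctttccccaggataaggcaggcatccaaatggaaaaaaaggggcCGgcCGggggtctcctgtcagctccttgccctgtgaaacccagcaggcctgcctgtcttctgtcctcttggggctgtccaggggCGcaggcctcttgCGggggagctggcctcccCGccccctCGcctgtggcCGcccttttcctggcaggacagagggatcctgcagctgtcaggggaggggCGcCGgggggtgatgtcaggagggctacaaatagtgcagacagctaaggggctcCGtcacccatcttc

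The next 5 are the central 300 bases of wide domains, read on the plus strand. Those of Rad51b (chr12:79444139-79444438), Ror1 (chr4:100176224-100176523) and Bcl2 (chr1:106680293-106680592) come from the widest non-promoter domain of 5 to 10 kb within the gene. Another comes from a remote domain whose nearest coding gene start was that of Fzd1 (chr5:4494811-4495110). The last comes from the widest domain of 5 to 10 kb in Utrn (chr10:12816778-12817077), which was itself a coding promoter domain, over an internal start.
Rad51b intron: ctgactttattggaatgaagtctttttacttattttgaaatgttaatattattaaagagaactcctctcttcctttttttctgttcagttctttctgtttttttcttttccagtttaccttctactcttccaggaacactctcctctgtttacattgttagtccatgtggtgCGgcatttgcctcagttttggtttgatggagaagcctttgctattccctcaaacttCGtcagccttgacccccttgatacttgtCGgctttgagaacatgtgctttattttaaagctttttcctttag
Ror1 intron: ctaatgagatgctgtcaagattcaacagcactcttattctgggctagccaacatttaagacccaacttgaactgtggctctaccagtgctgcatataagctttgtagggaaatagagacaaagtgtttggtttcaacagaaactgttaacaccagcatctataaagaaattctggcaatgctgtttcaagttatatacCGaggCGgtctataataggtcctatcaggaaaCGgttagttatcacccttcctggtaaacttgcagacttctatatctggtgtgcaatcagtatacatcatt
Bcl2 intron: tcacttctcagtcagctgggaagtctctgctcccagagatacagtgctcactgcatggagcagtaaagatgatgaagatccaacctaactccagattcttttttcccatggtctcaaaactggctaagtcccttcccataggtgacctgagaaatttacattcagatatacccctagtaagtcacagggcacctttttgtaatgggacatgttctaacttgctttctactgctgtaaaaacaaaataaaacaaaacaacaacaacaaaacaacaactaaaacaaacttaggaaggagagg
remote domain nearest Fzd1: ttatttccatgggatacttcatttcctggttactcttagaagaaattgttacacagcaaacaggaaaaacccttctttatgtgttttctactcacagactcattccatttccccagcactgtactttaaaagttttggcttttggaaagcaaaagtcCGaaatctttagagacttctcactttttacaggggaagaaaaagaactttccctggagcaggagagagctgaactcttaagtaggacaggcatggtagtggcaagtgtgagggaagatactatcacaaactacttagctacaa
Utrn widest: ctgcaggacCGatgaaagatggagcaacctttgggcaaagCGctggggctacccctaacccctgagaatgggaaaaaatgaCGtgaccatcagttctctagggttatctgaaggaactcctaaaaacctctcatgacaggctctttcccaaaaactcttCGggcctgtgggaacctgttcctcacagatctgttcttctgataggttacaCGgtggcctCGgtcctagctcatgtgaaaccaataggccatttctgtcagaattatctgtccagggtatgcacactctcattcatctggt

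The 3 CpG-rich promoters held 21, 20 and 21 CpGs for Junb, Cxcr4 and Sox8, and the Des promoter held 11. The centres of the Rad51b, Ror1 and Bcl2 domains held 3, 3 and 0, the remote domain held 1 and the Utrn domain held 6. The 4 promoters each held more CpGs than any of the 5 domain centres, but they were taken at the gene start, so the positions were not matched.

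Coding promoter domains numbered 2623 (49.5%, 48.1 to 50.8), other promoter domains 635 (11.1 to 12.9%) and non-promoter domains 2043 (38.5%, 37.2 to 39.9). Among the other promoter domains, 203 lay at non-coding transcripts of protein-coding genes and 171 at lincRNA genes, which encode long intergenic RNAs. The width barely set the 3 kinds apart, with medians of 6253, 6456 and 6275 bp. Over all members the median was 6289 bp with quartiles of 5532 and 7536 bp, and 2196 of them (41.4%) were narrower than 6 kb. The narrowest member, in the growth factor gene Igf1, had 5000 bp and the widest, at Numa1, had 9997 bp. Just outside the limits lay peaks of 4999 bp, 1 of them at Baz2b, and of 10000 bp, 1 of them in Fggy. The limits cut a continuous range, since 327 autosomal peaks lay within 100 bp below the lower limit and 261 within 100 bp above it.

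The share of promoters was 61.5% (60.1 to 62.8) among wide domains, 51.9% (51.2 to 52.6) among peaks of 2 to 5 kb and 63.8% (60.9 to 66.7) among very wide domains of 10 kb or more. A wider peak reaches a TSS more easily, and by the midpoint of the peak the same 3 shares were 51.3%, 46.9% and 32.7%. The order of wide and very wide domains thus depended on how a promoter was counted, and no test was made of these differences. On the autosomes the density of wide domains ran from 1.43 per Mb on chromosome 14 to 3.27 per Mb on chromosome 11.

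**Figure D1:**
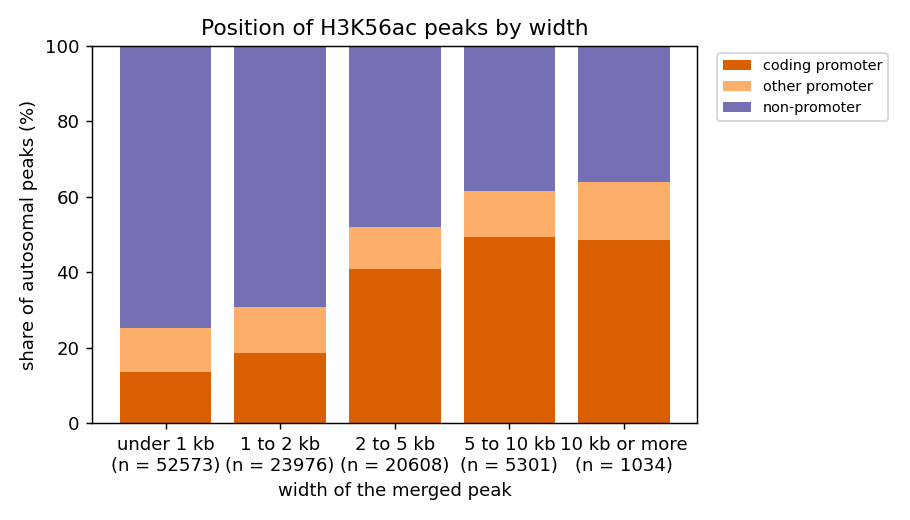
Share of autosomal merged peaks (y axis, %) that were coding promoter, other promoter or non-promoter peaks, in 5 classes of width (x axis, with the number of peaks). Coding promoters made up 49.5% of the 5301 wide domains of 5 to 10 kb, and non-promoter domains made up 38.5%.

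Most wide domains stood in series with other peaks. Another peak lay within 1 kb of 70.1% of coding promoter domains (68.3 to 71.8), of 85.5% of other promoter domains (82.6 to 88.0) and of 89.1% of non-promoter domains (87.7 to 90.4). The median gap to the nearest peak was 292, 157 and 117 bp, and a peak within 1 kb on both sides was found for 23.1%, 43.8% and 51.2%. Non-promoter domains were thus the more closely flanked kind. For non-promoter peaks of 2 to 5 kb the share with a neighbour within 1 kb was 78.0%, and for those of 10 kb or more it was 94.4%. When peaks under 1 kb apart were joined, the joined region that held a coding promoter domain had a median of 8.64 kb, against 14.1 kb for a non-promoter domain, and it reached 20 kb in 10.2% and 33.3% of them.

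Domains over a gene start reached further into the gene than away from it. The TSSs of 1 protein-coding gene lay inside 2036 domains, of 2 genes inside 384, of 3 genes inside 17 and of 4 genes inside 2. In the 2036 domains with 1 gene, measured from the TSS nearest the midpoint, a median of 2318 bp lay upstream (quartiles 1415 and 3278.5 bp) and 4038.5 bp lay downstream (2911 and 5215 bp). The downstream part was 64.0% of the domain at the median (62.7 to 65.4), and 1467 domains (72.1%, 70.1 to 74.0) reached further downstream. At 3 kb downstream 73.4% of the domains still covered the position, against 31.7% at 3 kb upstream. The median downstream share was 60.2% for peaks of 1 to 2 kb, 55.4% for peaks of 2 to 5 kb and 70.5% for very wide domains, so it did not rise at each step in width. Neighbouring peaks also lay more often on the downstream side, where 55.5% (53.3 to 57.6) had a peak within 1 kb, than on the upstream side, where 37.1% (35.0 to 39.2) had one.

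**Figure D2:**
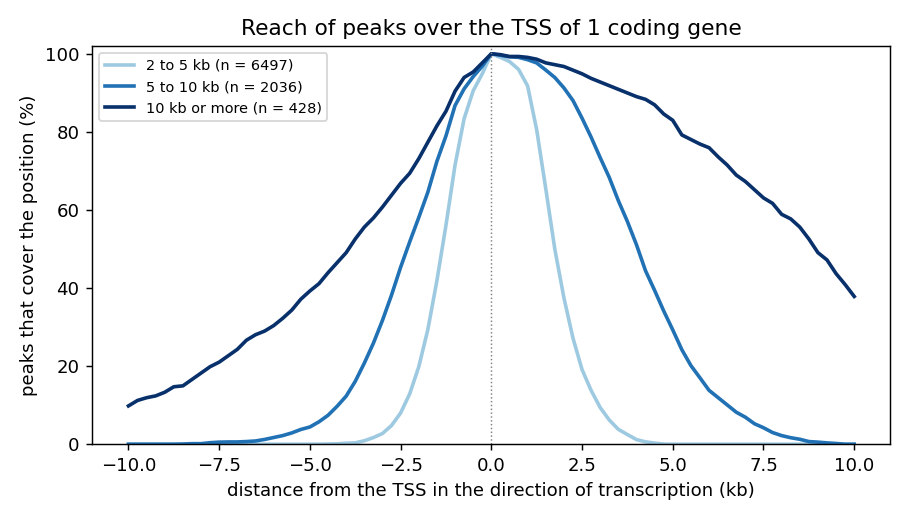
Share of peaks over the TSS of 1 coding gene that covered each position (y axis, %), by distance from the TSS in the direction of transcription (x axis, kb), for 3 classes of width. The curve of the 2036 wide domains stood at 73.4% at 3 kb downstream and at 31.7% at 3 kb upstream.

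The downstream part was larger at longer genes. It was 53.5% (48.9 to 58.7) in 124 domains at genes under 5 kb, 55.2% (52.9 to 58.4) in 457 at genes of 5 to 20 kb, 66.0% (64.7 to 67.9) in 1036 at genes of 20 to 100 kb and 69.0% (66.2 to 71.7) in 419 at genes of 100 kb or more. The intervals of the 2 shorter classes overlapped each other, and so did those of the 2 longer classes, but no shorter class overlapped a longer one. Many domains held a pair of starts. In 335 of the 384 domains with 2 genes the genes were on opposite strands, and in 267 of these the starts faced away from each other, with 208 pairs within 1 kb and a median distance of 166 bp.

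The sequence of coding promoter domains differed from that of non-promoter domains most in CpGs. The CpG observed/expected ratio, the count of CpGs over that expected from the C and G content, had a median of 0.415 (0.409 to 0.421) in coding promoter domains, 0.214 (0.207 to 0.220) in other promoter domains and 0.194 (0.191 to 0.197) in non-promoter domains. Windows of the same width placed 50 kb away had 0.203, 0.192 and 0.191. GC content was closer, with medians of 47.7%, 45.9% and 44.8%. A CpG-rich window, defined as 500 bp with a GC content of at least 55% and a ratio of at least 0.65, was found in 80.5% of coding promoter domains (79.0 to 82.0), in 9.92% of other promoter domains (7.83 to 12.5) and in 1.52% of non-promoter domains (1.07 to 2.15). The windows 50 kb away held one in 10.6%, 6.30% and 6.36%. Annotated repeats filled a median of 18.1% of coding promoter domains and 18.2% of non-promoter domains, against 27.7% and 22.6% of the windows 50 kb away. The authors kept only reads with a single alignment, and the part of that choice in the repeat content was not tested. The windows 50 kb away were not screened, and 52.9% of them touched a merged peak.

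CpGs were concentrated at the start of the gene. In the domains with 1 gene, CpG density was 8.78 per 100 bp in the first 250 bp after the TSS and fell to 1.01 at about 3.1 kb downstream, close to the mean of 1.01 in non-promoter domains. The 500 bp richest in CpGs had their centre within 500 bp of the TSS in 1587 domains (77.9%, 76.1 to 79.7). The downstream part of the domain was 64.6% (63.1 to 65.8) in 1700 domains with a CpG-rich window and 60.8% (57.7 to 65.0) in 336 domains without one, and this difference was not tested. A CpG-rich window was lacking in 511 coding promoter domains. Among the pathway genes described below, these included domains at annotated starts of Utrn, Notch1, Fgfr1, Bmp6, Acvr1, Sspn and Maml2, and their ratios ran from 0.154 at Notch1 to 0.299 at Maml2.

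**Figure D3:**
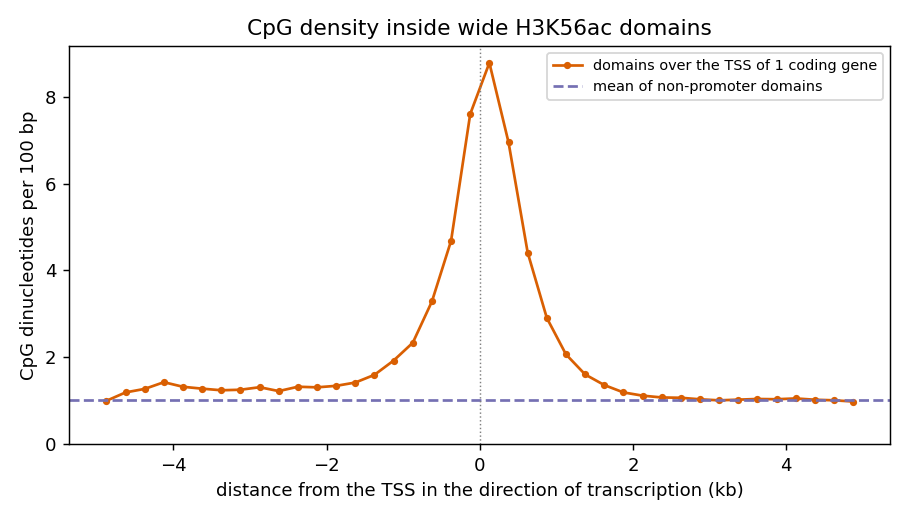
CpG dinucleotides per 100 bp (y axis) in steps of 250 bp from the TSS in the direction of transcription (x axis, kb), averaged over the domains with 1 coding gene that covered each step, with a dashed line at the mean of non-promoter domains. The density stood at 8.78 just after the TSS and near the dashed line, at 1.01, about 3.1 kb downstream.

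Exact matches on both strands to 6 short motifs were counted in the central 300 bp of each domain. The GC-rich motif of Sp and KLF factors, GGGCGG, was found in 18.6% of coding promoter domains (17.2 to 20.1) and 3.57% of non-promoter domains (2.85 to 4.47), against 8.17% of all autosomal peaks of at least 300 bp and 4.70% of windows moved by 50 kb. Among the autosomal peaks without a promoter the share was 4.03%. The E-box CAGCTG, which is bound by MYOD1 and related myogenic factors, was found in 12.3% of coding promoter domains (11.1 to 13.6) and 16.3% of non-promoter domains (14.7 to 17.9), against 17.1% and 13.2%. The AP-1 motif TGACTCA was found in 4.77% and 5.92%, against 5.48% and 5.16%. The TEAD motif CATTCCA was found in 4.73% and 5.29%, against 5.19% and 4.99%. The RUNX motif TGTGGTT was found in 6.14% and 6.31%, against 6.80% and 8.12%. The ETS motif CCGGAAGT was found in 1.07% and 0.587%, against 0.571% and 0.340%, and was found in 0.315% of peaks without a promoter. In the central 300 bp, Sp/KLF was the motif with the widest gap between promoter and non-promoter domains. For AP-1, TEAD, RUNX and ETS the intervals of the 2 kinds overlapped there. The central 300 bp was not placed at the TSS. Over whole domains, ETS had 0.0284 matches per kb in coding promoter and 0.00981 in non-promoter domains, against 0.0101 in moved windows. In the same 2 kinds Sp/KLF had 0.836 and 0.131, AP-1 0.169 and 0.208, TEAD 0.158 and 0.188, and RUNX 0.240 and 0.253. The moved windows had 0.187, 0.180, 0.171 and 0.279 for these 4 motifs, so RUNX was denser there than in both kinds. The E-box had 0.540 and 0.607, against 0.513 in moved windows.

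Of 20807 protein-coding genes on autosomes, 3005 (14.4%, 14.0 to 14.9) had a wide domain within 3 kb of a TSS, 2786 had one over a TSS, and 530 had a very wide domain, with 95 genes having both. A pair of wide domains stood at the promoters of 133 genes and 3 or more at those of 11 genes. Pde4b, which encodes a cAMP phosphodiesterase, had 4, and Agpat3, Epb41l2, Mtus1, Nedd4l, Schip1, Slc25a25, Sspn, Tead1, Tns1 and Utrn had 3 each at their annotated starts. The domains with the most genes included one of 7044 bp at Zbed6, Zc3h11a and a predicted gene, and one of 9322 bp at Sarm1, Sebox and Vtn.

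Markers of the labelled cell type were described from lists chosen with earlier results of these data known, so they are no independent check of it. All 20 MuSC marker genes had a promoter peak, as did 68.1% of all coding genes on autosomes. Of the 20, 7 (35%) had a wide domain and 11 (55%) had a very wide domain at the promoter. Over all coding genes these shares were 14.4% and 2.55%. The 7 were Cdh15 (M-cadherin, 7972 bp), Cxcr4 (6296 bp), Des (9745 bp), the Notch target Hey1 (9126 bp), Itga7 (8977 bp), Itgb1 (6996 bp), which encodes the integrin partner of Itga7, and Sox8 (6614 bp). The domains at Cxcr4, Hey1 and Sox8 covered 100% of the gene. At Itga7 7375 bp lay downstream of the TSS and 1601 bp upstream, whereas at Des 2837 bp lay downstream and 6907 bp upstream. The domain at Cdh15 began 370 bp downstream of the GENCODE TSS and did not cover it. The other 2 markers without a promoter domain of at least 5 kb were Myod1, whose widest promoter peak had 2720 bp, and Met, whose widest had 4033 bp. Met, the receptor of hepatocyte growth factor, still held 4 wide domains inside the gene, of 5552, 5198, 5896 and 5977 bp.

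Of 23 markers of other cells in muscle, 15 had any promoter peak, against 68.1% of all coding genes on autosomes. A wide promoter domain was found at 2 of them, the mural cell gene Cspg4 (6912 bp) and the tendon gene Scx (6992 bp). A very wide one was found at 2 others, the endothelial gene Tek (12975 bp) and Col15a1 of fibro-adipogenic cells (14382 bp). A promoter domain of at least 5 kb was thus found at 4 of 23 (17.4%), near the 16.5% of all coding genes. Tek, the endothelial gene Pecam1, the mural gene Rgs5 and Col15a1 also held wide domains inside the gene, with 3 in Col15a1. Among immune markers, Ptprc, Adgre1 and Cd3e had no promoter peak, whereas Cd68 and Csf1r, which mark macrophages, had promoter peaks of 2636 and 1786 bp. By the study's reporting summary the sorted cells were only partly pure, and the part of other cells in the list was not tested.

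Genes that act in MuSC maintenance were grouped in lists, and each count stands beside the 14.4% of all protein-coding genes. A wide promoter domain was one within 3 kb of any annotated protein-coding start of the gene, which could be an internal start. In all 19 lists the genes share one merged set of peaks and some belong to several lists, so the counts are descriptions. Of 22 myogenic transcription factor genes, 5 had a wide promoter domain, namely Eya4 (9062 bp), Srf (8139 bp), Msc (6728 bp), Six4 (6404 bp) and Six2 (5952 bp), and 6 had a very wide one. EYA proteins are coactivators of homeobox factors such as SIX4, and SRF drives actin and other cytoskeletal genes. At Six4 6022 of the 6404 bp lay downstream of the TSS.

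In the Notch pathway, in which a ligand on one cell activates a receptor on the next, 7 of 22 genes had a wide promoter domain. Among ligands these were Dll1 (5957 bp) and Jag1 (5235 bp), and among receptors Notch1, with domains of 5737 and 7141 bp. Notch1 also had a very wide promoter domain of 13768 bp. The nuclear effector gene Rbpj had 2 within 3 kb of annotated starts, of 7539 and 5605 bp. Another 3, of 8190, 5571 and 5220 bp, lay farther from its starts. All of these Rbpj domains lay wholly inside the gene. The coactivator gene Maml2 had 2 promoter domains, of 6209 and 5850 bp. The target genes Hes1 and Hey1 had 6328 and 9126 bp. Numb, which encodes an inhibitor of Notch, had none at the promoter, 2 inside the gene, of 5154 and 7189 bp, and 1 of 9082 bp that lay across its end and covered 1.90% of the gene.

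Of 22 immediate early genes, which are switched on within minutes by stress such as tissue dissociation, 9 had a wide promoter domain. The AP-1 genes Jun and Junb had 7145 and 7521 bp, Ier2 had 7574 bp, Egr1 had 5882 bp, Egr3 had 5331 bp, Myc had 5215 bp and Btg2 had 5342 bp. Zfp36, which encodes an mRNA-destabilising protein, had 9081 bp, nearly evenly divided with 4569 bp upstream and 4511 bp downstream. For Dusp1 the domain of 6007 bp lay over a distant annotated start and not over the RefSeq start. Its widest promoter peak was very wide, with 10567 bp. Of 20 cell cycle genes, Ccne1 (6090 bp) was the 1 gene with a wide promoter domain, although all 20 had a promoter peak. Their median widest promoter peak was 2639.5 bp, against 5273 bp for the immediate early genes and 3449 bp for all coding genes with a promoter peak.

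Of 31 genes of the TGF-beta and BMP pathway, 14 had a wide promoter domain. These were the ligand genes Tgfb2 (5902 bp), Tgfb3 (9728 bp) and Bmp6 (6887 and 5506 bp), the receptor genes Tgfbr1 (6935 bp), Bmpr2 (7844 bp), Acvr1 (5008 bp), Acvr2a (8269 bp) and Acvr2b (6337 bp), the signal transducer genes Smad2 (6769 bp) and Smad4 (5945 bp), the inhibitor genes Smad6 (5957 bp) and Smad7 (5415 bp), and the target genes Id1 (8874 bp) and Id2 (6371 bp). The Bmp6 and Acvr1 domains named here lay wholly inside their genes, over or near internal starts. Acvr1 also had a very wide promoter domain of 10489 bp. The Acvr2b domain lay 2600 bp from the nearest TSS of the gene and did not cover it. Mstn, which encodes the muscle growth inhibitor myostatin, had a promoter peak of 4697 bp. Tgfbr3 held 5 wide domains inside the gene, from 5233 to 8703 bp.

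Of 19 growth factor receptor and Sprouty genes, 7 had a wide promoter domain. Among receptors these were Erbb2 (5742 bp), Fgfr1 (6991 bp), Fgfr2 (5766 bp), Fgfr4 (6145 bp) and Igf1r (6365 bp), and Igf1r held 6 further domains inside the gene, of 5272 to 9400 bp. The Fgfr1 domain of 6991 bp lay wholly inside the gene, over an internal start. Fgfr1 also had a very wide promoter domain of 17606 bp. The Fgfr2 domain lay at the start of a transcript that runs across several other genes. Among inhibitors of receptor signalling these were Spry2 (8959 bp) and Spred2 (8963 bp). Both domains ran into the gene, with 8613 bp downstream at Spry2 and 8077 bp at Spred2.

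The dystrophin complex joins the cytoskeleton of the muscle fibre to the matrix outside, and 5 of the 13 autosomal genes of this list had a wide promoter domain. Dag1, which encodes dystroglycan, had 8348 and 8096 bp, Sntb2 had 8318 bp, Dtnb had 5594 bp and Sspn had 5920, 9208 and 5954 bp. The Sspn domains lay wholly inside the gene. Utrn, which encodes the dystrophin paralog utrophin, overlapped 56 peaks, of which 7 were wide. From the 3′ to the 5′ side of the gene they had 5485, 6895, 9113, 5697, 5428, 5133 and 7363 bp. The 4 domains of 9113, 5697, 5428 and 5133 bp were divided by gaps of 30, 37 and 19 bp, and 2 of them covered internal starts. At the most upstream start the peak was narrower than 5 kb and reached 3.14 kb into the gene. The widest Utrn peak within 3 kb of any annotated start was very wide, with 10610 bp. Dmd, the dystrophin gene, lies on chromosome X, which the width rule left out.

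Of 15 genes of sirtuins and of H3K56 acetylation, Sirt2 (9625 bp) alone had a wide promoter domain. The promoter peaks of Sirt6, Ep300 and Crebbp had 2624, 3936 and 4989 bp. Pax7 had a very wide promoter domain of 21301 bp and held 2 wide non-promoter domains, of 5150 and 8809 bp.

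The remaining lists spanned a wide range around the 14.4% of all coding genes. Wide promoter domains were found at 4 of 16 Klf genes, 8 of 41 Fox genes, 3 of 18 Sox genes, 13 of 78 ribosomal protein genes, 14 of 86 mitochondrial respiratory chain genes, 53 of 383 Zfp zinc finger genes, 5 of 42 collagen genes and 4 of 39 Hox genes. Among 1452 olfactory and vomeronasal receptor genes there was 1. The Klf genes were Klf3 (7884 bp), Klf10 (5467 bp), Klf13 (5248 bp) and Klf16 (5775 bp), and the Hox genes Hoxc4, Hoxc6, Hoxc8 and Hoxc9 all belonged to the HoxC cluster. The domain counted for Hoxc8, of 7904 bp, was also counted for Hoxc9. It lay 2980 bp from the Hoxc8 TSS and covered no part of Hoxc8. A wide domain lay over a TSS in 2 of the 39 Hox genes. Foxo3, a factor of stem cell quiescence, had 5227 bp at the promoter and 4 domains inside the gene, whereas Foxo1 had none at the promoter and 3 inside, of 7739, 9632 and 6895 bp.

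**Figure D4:**
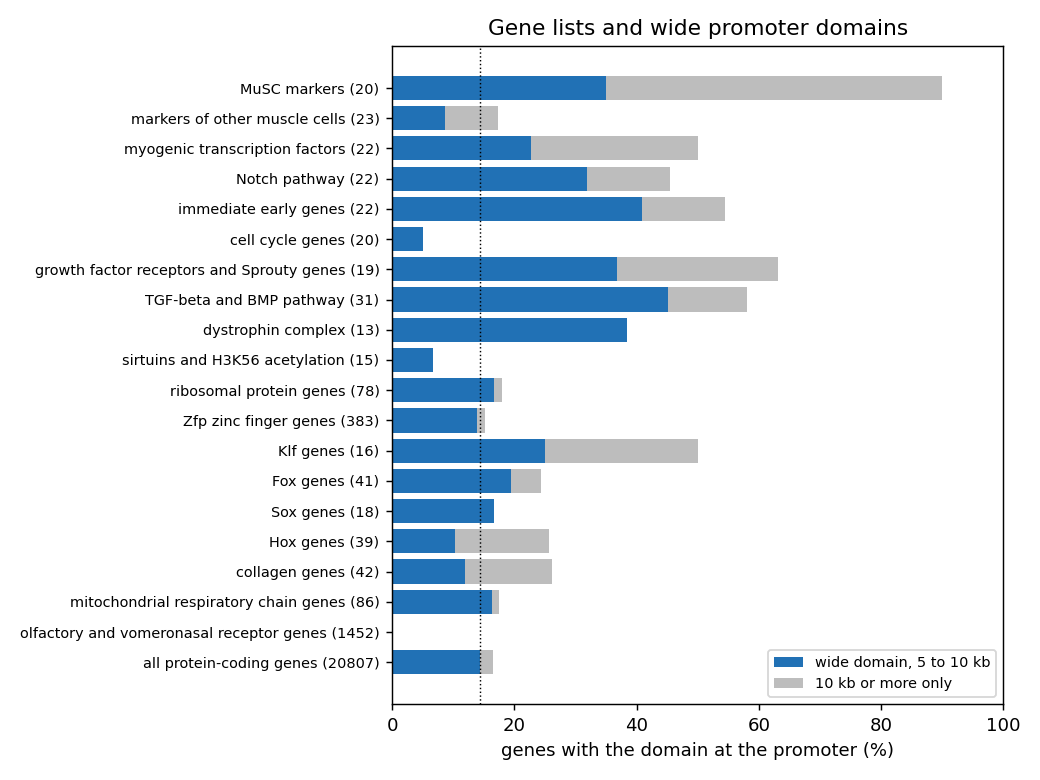
Share of the genes in each list (x axis, %; number of genes in brackets) with a wide domain at the promoter (blue) or only a domain of 10 kb or more there (grey), with a dotted line at the 14.4% of all protein-coding genes. The TGF-beta and BMP pathway had 14 of 31 genes in blue and the cell cycle genes 1 of 20, while 18 of 20 MuSC markers had a domain of 5 kb or more.

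Small genes could lie wholly inside a wide domain. This held for 158 protein-coding genes in 147 domains, with a median gene length of 2168 bp. The longest were Bloc1s1 (6154 bp in a domain of 8019 bp), Zfp503 (5643 bp in 8408 bp), the homeobox gene En1 (5575 bp in 8017 bp), Cdkn1b (5113 bp in 9707 bp), which encodes the cell cycle inhibitor p27, and Zbed6 (5007 bp in 7044 bp).

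MicroRNAs (miRNAs) are short RNAs that pair with mRNAs through their seed and repress them. Of 2054 annotated miRNA genes on autosomes, 383 overlapped a merged peak and 93 (4.53%) overlapped a wide domain. The families described here were chosen after these overlaps were seen. Of 10 let-7 genes 7 lay in wide domains, which were 6 domains since Mirlet7a-1 and Mirlet7f-1 shared one of 9478 bp. All 3 genes of the miR-99/100 family and 2 of the 3 genes of the miR-125 family did so as well, and Mir125b-1 lay in a very wide domain of 19913 bp. These families are neighbours in the genome: Mir99a and Mirlet7c-1 shared a domain of 8029 bp, Mir100 and Mirlet7a-2 shared one of 7619 bp, and Mir99b, Mirlet7e and Mir125a shared one of 8101 bp, so the genes are not separate observations. Mir195a and Mir497, which share a seed with miR-15 and miR-16 and repress cell cycle genes, lay in 1 domain of 9216 bp on chromosome 11. Their relatives Mir15b and Mir16-2 lay in a peak of 4371 bp, and Mir15a and Mir16-1 lay in no peak. Mature sequences from RefSeq (GRCm38.p6, all plus strand) are shown with the seed, bases 2 to 8, in capitals, for let-7c (chr16:77599672-77599693), miR-99a (chr16:77598940-77598961), miR-100 (chr9:41531437-41531458), miR-125a (chr17:17830817-17830840), miR-125b (chr16:77646279-77646300), miR-195a (chr11:70235062-70235082) and miR-497a (chr11:70234730-70234751).
mmu-let-7c-5p: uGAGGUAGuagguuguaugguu
mmu-miR-99a-5p: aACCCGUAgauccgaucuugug
mmu-miR-100-5p: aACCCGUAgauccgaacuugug
mmu-miR-125a-5p: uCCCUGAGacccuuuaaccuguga
mmu-miR-125b-5p: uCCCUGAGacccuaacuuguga
mmu-miR-195a-5p: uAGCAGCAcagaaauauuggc
mmu-miR-497a-5p: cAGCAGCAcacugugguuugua

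Of the 7 miRNAs shown, miR-99a and miR-100 had 1 seed in common, as did miR-125a and miR-125b, and miR-195a and miR-497a. The list does not state which transcripts were made, and the domains have no strand.

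Most non-promoter domains lay inside a protein-coding gene, a share that was not set against the genome or against peaks of other widths. Of the 2043, 1186 (58.1%, 55.9 to 60.2) lay inside a protein-coding gene, 47 crossed the end of one, 128 lay in a lncRNA gene and 682 (33.4%, 31.4 to 35.5) lay outside these genes. No exon of a coding gene was touched by 1747 of them (85.5%). Within coding genes 398 (33.6%) lay in intron 1 of the longest transcript, 187 in intron 2, 334 in a later intron, and 204 overlapped an exon. The median distance from the midpoint to the nearest coding TSS was 44.2 kb, with quartiles of 19.7 and 101 kb, and 517 (25.3%) lay more than 100 kb away.

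The 1186 domains lay in 698 host genes, of which 439 had 1, 147 had 2 and 112 had 3 or more. Host genes had a median length of 132 kb, against 17.6 kb for all coding genes, and a longer gene has more room for such a domain. A promoter peak of at least 5 kb was found at 408 hosts (58.5%), against 16.5% of all coding genes. The hosts were not matched in length, and only 68.1% of all coding genes had any promoter peak. A link between domains at the promoter and inside the gene was not tested. The hosts with the most were Rad51b, a gene of homologous recombination, with 17 domains, and Ror1, a receptor of Wnt ligands, with 15. The gene model of Fgfr2 held 12, but it is 2961 kb long and 11 of them also lay in Chst15, Ctbp2, Fam53b or Lhpp. Then came the nuclear receptor gene Rora with 9, the homeobox gene Cux1 with 8, and Bcl2, Creb5, Fndc3b, Pde7b and Rbms1 with 7 each.

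The domains of Rad51b ranged from 5348 to 9806 bp, its 113 peaks of any width covered 61.4% of the gene, and 12 of the 17 lay in intron 7. Its widest promoter peak had 3249 bp. The domains of Ror1 ranged from 5020 to 9500 bp and covered 30.3%, and 12 of the 15 lay in intron 1. All 7 domains of Bcl2, which encodes an inhibitor of apoptosis, lay in its intron 1 and covered 31.6% of the gene. In Rora 5 lay in intron 1 and 4 in intron 2. Ccnd3, the gene of cyclin D3, held 6 domains in intron 1 that covered 44.9% of its 94.6 kb. Peaks of any width covered 83.2% of Ror1, 76.0% of Bcl2 and 74.1% of Ccnd3.

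**Figure D5:**
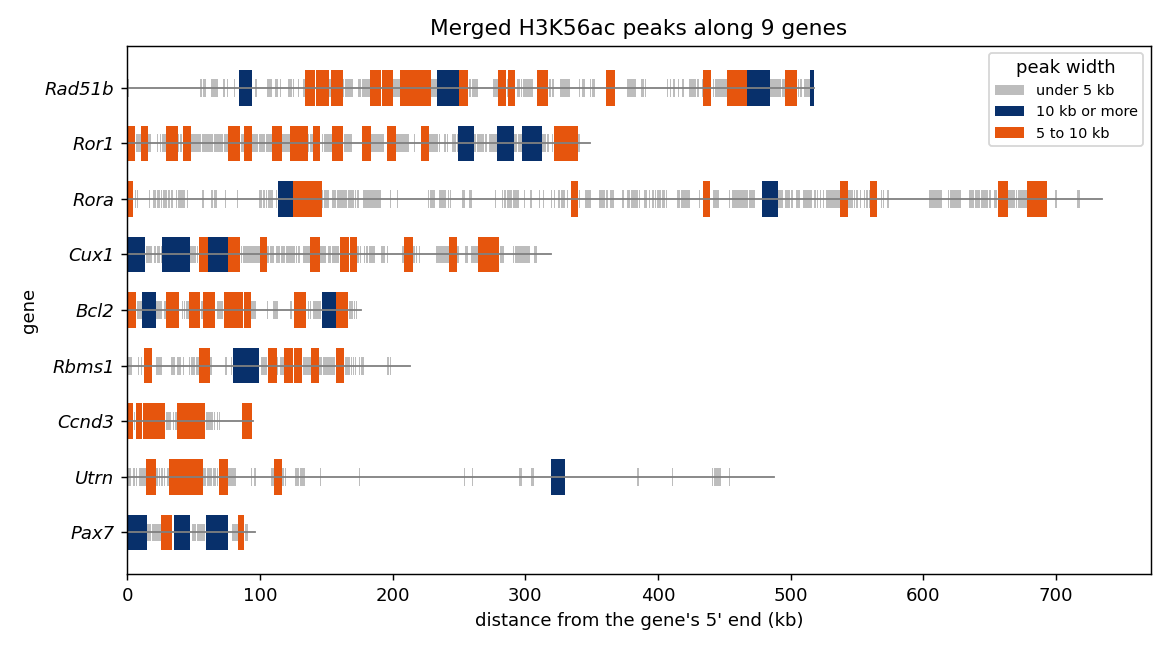
Merged H3K56ac peaks along 9 genes (y axis) by distance from the 5′ end of the gene (x axis, kb), with wide domains in orange, domains of 10 kb or more in dark blue and narrower peaks in grey. Wide non-promoter domains numbered 17 in Rad51b, 15 in Ror1 and 7 in Bcl2, and stood among many narrower peaks, whereas 40 of the 56 Utrn peaks began within the first 150 kb of the gene.

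Wide domains also lay close to each other. With a limit of 12.5 kb between neighbours, 1612 of the 5301 (30.4%) stood in groups of 2 or more, and 20 groups held 5 or more. The group with most held 7 domains across Taf8 and Ccnd3 (chr17:47500746-47563528), where 13 peaks covered 93.7% of 62.8 kb. Groups of 6 lay in Bcl2 (chr1:106621157-106685353), Utrn (chr10:12793434-12854905), Ddc (chr11:11820168-11892158) and Zbtb16 (chr9:48745449-48796112). In Zbtb16, which encodes the transcription factor PLZF, all 6 were non-promoter domains and 9 peaks covered 96.7% of 50.7 kb.

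Some wide domains lay far from any annotated start. The farthest lay in Rad51b, 278 kb from a TSS and with a width of 8856 bp (chr12:79605826-79614681). Outside genes, the farthest had 5114 bp and lay 261 kb from the start of the Wnt receptor gene Fzd1 (chr5:4492404-4497517). Another of 8636 bp lay 258 kb from a TSS and 317 kb from that of Map3k7 (chr4:31638866-31647501). The other 2 of the 5 farthest also lay in Rad51b, at 260 and 257 kb.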

How the data were processed

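The data were H3K56ac ChIP-seq libraries and inputs of freshly isolated MuSCs, sequenced on an IonTorrent instrument. Per the study's methods, reads were trimmed (Trim Galore) and aligned to mm10 by bowtie, which kept single alignments, before the authors removed duplicates (Picard), called peaks (MACS2), dropped blacklisted regions and merged overlapping peaks (GenomicRanges). The submitters' processing notes also name FastQC, SAMtools and deepTools. The deposited list gives chromosome, start and end of each interval, and its other columns hold no measurement. The score column that the authors deposited was 0 in every row. Which libraries entered the merge is not given in the sources used here. With 0 columns of values per sample, the genotypes were not compared and no statistical test was made. The list gives no depth. The study's reporting summary gives read counts for each library and several peak counts, which were not used here.

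Widths and positions were compared with GRCm38.p6, the same build as mm10, and with 141730 transcripts of GENCODE vM21, using Python 3.11.15, numpy 2.4.6, pandas 2.3.3 and scipy 1.17.1, and the functions were tested on simulated data. Coordinates count from 1. Shares have Wilson 95% intervals and medians have distribution-free intervals. Repeats are the soft-masked bases of the assembly. RefSeq promoters were matched by symbol, for 15687 coding genes on autosomes, and Hey1, Id1, Itga7 and Egr1 had no entry.

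The members and lists were chosen with earlier results of these data known. Named genes were those of the lists with a domain at the promoter or inside the gene, genes the study examines, the 10 hosts with most domains, and the 5 domains with most gene starts, farthest from a TSS or at the width limits, the latter given in part. Ccnd3, the domain groups, the genes with 3 or more promoter domains and the miRNA families were named after their values were seen. 1 marker gene of the lists is not reported here by name. Alternatives were other promoter limits, transcript sets, TSS choices, gap limits, width limits and joined peaks.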

Additional observations from a re-analysis of the deposited data

How the results depend on the processing

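Of 23 alternatives for 9 results, 8 kept the value within its interval or a count within 1.5 times, and 15 moved it. The share of wide domains at a promoter, 61.5%, was 56.9% with a promoter of 1 kb, 54.1% for a TSS inside the domain, 51.3% for a midpoint within 3 kb, 49.5% with protein-coding transcripts only, 56.3% with basic transcripts only and 59.4% with peaks under 1 kb apart joined. The downstream share of 64.0% was 69.5% from the most upstream TSS and 60.5% with peaks joined. The CpG ratio of promoter domains, 0.375 over coding and other promoters, was 0.272 in the central 1 kb and 0.415 with protein-coding transcripts only, and that of non-promoter domains, 0.194, was 0.190 and 0.198. Another peak within 1 kb was found for 79.3% of all wide domains, and for 70.5% within 500 bp and 85.0% within 2 kb. With all promoter peaks of at least 5 kb, 18 in place of 7 MuSC markers counted. The number of domains was 7199 with peaks joined, 5305 over all chromosomes and 7163 with the width limits widened by 10%.

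No paired analysis was possible because the list carries no value per sample and no result comes from a test. For the same reason no replicate was left out. Depth and peak height are unknown from the list.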
